A study of Mus musculus with 19 samples.

Results

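The variable (V) gene segments of the immunoglobulin light chains were described in whole-lung RNA-seq libraries. They were taken as all rows of the deposited count table whose symbol begins with Igkv (kappa) or Iglv (lambda) and whose counts sum to at least 10 over the 19 libraries. This gave 103 of 49585 rows, 100 kappa and 3 lambda. Of the 163 light-chain V rows in the table, 42 had 0 counts and 18 had 1 to 9. The members just inside that limit were Igkv7-33 with 10 summed counts and Igkv6-29 with 12, and those just outside were Igkv20-101-2 and Igkv8-34 with 9 each. GENCODE M21 annotates 97 members as V genes and 6 as V pseudogenes.

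The groups were Has2+/- mice given ovalbumin (Has2+/- OVA, n = 5), wild-type mice given ovalbumin (WT-OVA, n = 5), Has2+/- mice given saline (Has2+/- saline, n = 4) and wild-type mice given saline (WT-saline, n = 5), with 1 library per sample. All were Balb/c mice, and the Has2+/- animals were heterozygous knockouts of the gene for a hyaluronan synthase, with wild-type littermates as WT. The methods state that they were females aged 6 to 8 weeks at the start. OVA mice were sensitised with OVA in alum and then challenged through the nose for 8 weeks, saline mice received saline, and lungs were taken 24 h after the last challenge. Libraries held 4446534 to 7048676 counts. Has2 itself was close to the detection limit, at 0.554 to 1.41 CPM (counts scaled by library size) in Has2+/- OVA, 0.364 to 1.84 in WT-OVA, 0.334 to 1.52 in Has2+/- saline and 0.197 to 0.629 in WT-saline, so that it did not separate the genotypes and could not check the labels.

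An antibody light chain is encoded by a V segment that each developing B cell joins to a J segment, followed by a constant gene. A B cell makes either a kappa or a lambda chain, and in the mouse kappa is used far more often. Plasma cells, the antibody-secreting descendants of B cells, hold very large amounts of this RNA, so that V segment counts in a tissue reflect both which clones are present and how strongly they secrete. In whole lung, a larger number of such cells and more RNA per cell cannot be told apart.

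Kappa V segments lie on chromosome 6 and lambda V segments on chromosome 16. Many are near-identical copies, which matters because the reads were 36 bases long. The V exons of the segments that led saline libraries, of a pair that led OVA libraries and of the lambda pair are shown for this reason, with capitals at the bases that differ within each pair, as the last 300 bases of each exon. They are the GENCODE M21 reference sequences (mm10, from a C57BL/6 mouse, whereas these mice were Balb/c), read 5′ to 3′ on the coding strand. Igkv1-110 (chr6:68270968-68271267, plus strand) and Igkv1-117 (chr6:68121528-68121827, plus strand) differed at 10 of these 300 bases, and the longest run that the exons shared was 142 bases:
Igkv1-110: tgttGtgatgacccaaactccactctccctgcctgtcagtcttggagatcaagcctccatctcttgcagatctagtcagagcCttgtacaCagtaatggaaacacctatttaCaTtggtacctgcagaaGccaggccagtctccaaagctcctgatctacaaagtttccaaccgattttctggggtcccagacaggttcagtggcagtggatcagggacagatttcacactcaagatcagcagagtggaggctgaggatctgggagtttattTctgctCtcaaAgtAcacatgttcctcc
Igkv1-117: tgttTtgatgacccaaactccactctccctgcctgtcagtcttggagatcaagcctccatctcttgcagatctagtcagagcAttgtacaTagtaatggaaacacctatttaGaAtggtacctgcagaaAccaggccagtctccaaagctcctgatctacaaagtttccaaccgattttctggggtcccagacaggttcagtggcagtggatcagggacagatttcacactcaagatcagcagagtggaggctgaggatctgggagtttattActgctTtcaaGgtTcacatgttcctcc

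Igkv3-7 (chr6:70607737-70608036, plus strand) and Igkv3-12 (chr6:70518550-70518849, plus strand) differed at 10 of 300 bases, with a longest shared run of 97 bases:
Igkv3-7: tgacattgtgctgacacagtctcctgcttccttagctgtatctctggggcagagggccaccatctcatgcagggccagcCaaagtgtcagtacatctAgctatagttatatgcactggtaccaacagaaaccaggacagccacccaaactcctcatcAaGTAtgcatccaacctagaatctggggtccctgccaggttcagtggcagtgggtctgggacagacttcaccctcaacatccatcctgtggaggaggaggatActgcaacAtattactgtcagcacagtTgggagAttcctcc
Igkv3-12: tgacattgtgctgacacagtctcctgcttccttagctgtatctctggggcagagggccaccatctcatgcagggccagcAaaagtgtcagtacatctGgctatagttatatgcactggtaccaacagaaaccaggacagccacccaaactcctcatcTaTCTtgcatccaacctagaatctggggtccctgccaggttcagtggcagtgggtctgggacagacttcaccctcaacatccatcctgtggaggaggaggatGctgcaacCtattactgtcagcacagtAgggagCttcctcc

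Iglv1 (chr16:19085017-19085316, minus strand) and Iglv2 (chr16:19260401-19260700, minus strand) differed at 8 of 300 bases, with a longest shared run of 104 bases:
Iglv1: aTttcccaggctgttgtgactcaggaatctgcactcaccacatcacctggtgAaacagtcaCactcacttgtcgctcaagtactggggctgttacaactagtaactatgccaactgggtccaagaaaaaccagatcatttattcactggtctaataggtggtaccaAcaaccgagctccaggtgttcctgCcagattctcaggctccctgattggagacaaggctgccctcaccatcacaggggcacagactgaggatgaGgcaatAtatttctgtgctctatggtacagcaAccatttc
Iglv2: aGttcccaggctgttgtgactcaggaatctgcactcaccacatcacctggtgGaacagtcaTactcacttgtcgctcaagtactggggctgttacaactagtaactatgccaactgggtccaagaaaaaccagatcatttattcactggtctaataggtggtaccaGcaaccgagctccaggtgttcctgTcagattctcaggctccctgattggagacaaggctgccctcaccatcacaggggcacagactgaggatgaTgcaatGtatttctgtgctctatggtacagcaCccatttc

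Of all 36-base windows of a member's transcript, a median of 43.8% also occurred in the transcript of another gene. The share was 60.4% for Igkv1-110, 59.3% for Igkv1-117, 57.7% for Igkv3-7, 68.5% for Igkv3-12, 33.1% for Iglv1 and 35.6% for Iglv2, and 0 for Iglv3. It was 0 for 11 members, at most 10% for 25 and over 50% for 35. How reads with several matches were assigned is not given in the sources used here, so the split of counts between near-identical segments is uncertain.

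Summed kappa V RNA was higher in every OVA library than in every saline library, in both genotypes. It was 3336, 3992, 4080, 3977 and 2102 CPM in Has2+/- OVA, against 91.5, 95.7, 85.1 and 167 CPM in Has2+/- saline. It was 3381, 4390, 3446, 4467 and 3205 CPM in WT-OVA, against 91.7, 160, 84.7, 74.0 and 74.8 CPM in WT-saline. The mean was 31.8-fold higher in Has2+/- OVA than in Has2+/- saline (3497 ± 834 and 110 ± 38.4 CPM, SD, n = 5 and 4) and 38.9-fold higher in WT-OVA than in WT-saline (3778 ± 601 and 97.0 ± 35.8 CPM, n = 5 each). Has2+/- OVA and WT-OVA overlapped, as did Has2+/- saline and WT-saline. Light-chain V counts made up 0.216 to 0.442% of all counts in OVA libraries and 0.00760 to 0.0177% in saline libraries.

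Summed lambda V RNA was also higher in all OVA libraries, but by less. It was 39.5, 36.9, 28.1, 27.7 and 12.8 CPM in Has2+/- OVA, against 4.79, 5.61, 8.17 and 3.25 CPM in Has2+/- saline. It was 27.4, 59.5, 20.5, 28.9 and 21.8 CPM in WT-OVA, against 3.84, 4.58, 3.75, 2.90 and 4.25 CPM in WT-saline. The means stood 5.32-fold apart in Has2+/- mice and 8.18-fold apart in WT mice, and in both genotypes the groups did not overlap.

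The lambda share of light-chain V counts was therefore lower in OVA libraries. It was 1.17, 0.917, 0.685, 0.692 and 0.607% in Has2+/- OVA, against 4.97, 5.54, 8.77 and 1.91% in Has2+/- saline. In WT-OVA it was 0.803, 1.34, 0.590, 0.642 and 0.676%, against 4.02, 2.78, 4.24, 3.77 and 5.37% in WT-saline. No OVA library reached the lowest saline library, and the genotypes overlapped within each treatment. The lowest saline value rested on 15 lambda counts of 785 (95% Wilson interval 1.16 to 3.13%) and the highest OVA value on 323 of 24167 (1.199 to 1.49%). These intervals cover counting error only.

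**Figure D1:**
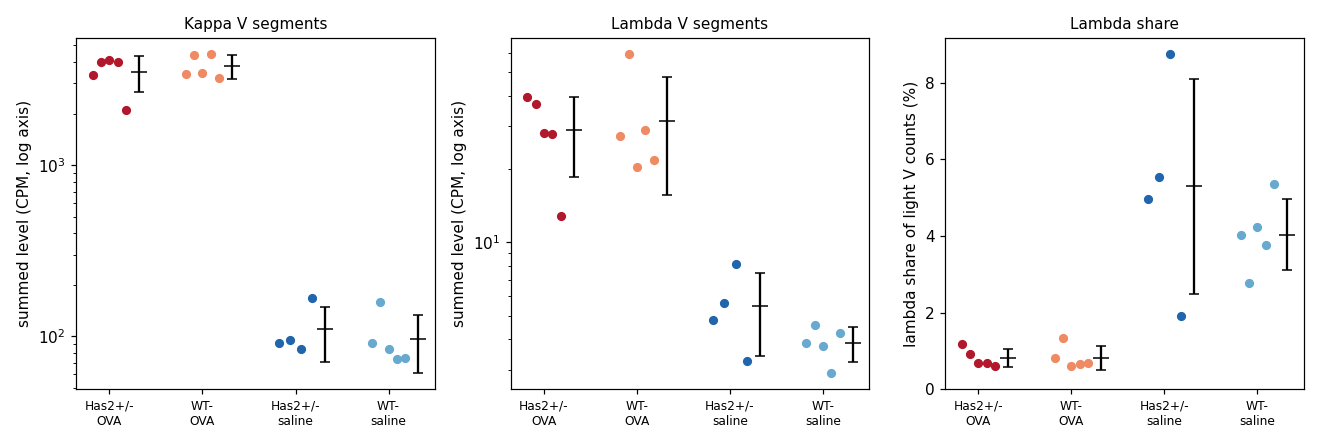
Summed kappa and lambda V levels (CPM, log axes) and the lambda share of light-chain V counts (%, linear axis), one point per library, with mean and SD per group as black bars. In all 3 panels the OVA libraries and the saline libraries do not overlap, with lambda shares of 0.590 to 1.34% in OVA and 1.91 to 8.77% in saline.

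Of the 103 members, 80 passed the filter on low counts. Members that passed because of their OVA counts had to differ from saline, so counts over the 80 describe them and support nothing further. In Has2+/- OVA against Has2+/- saline, 71 of the 80 rose and 0 fell (edgeR, adjusted p under 0.01 and fold change above 1.2), where 18.2% of all 14495 genes tested passed (1524 upwards and 1119 downwards). In WT-OVA against WT-saline, 71 rose and 0 fell, where 21.9% of all genes passed (1733 upwards and 1442 downwards). DESeq2 called 77 of the 80 in Has2+/- mice (20.6% of all genes) and 75 in WT mice (23.5%). The median log2 fold change of the 80 was 5.14 (1.36 to 8.11) in Has2+/- mice and 5.18 (1.03 to 8.21) in WT mice, against -0.01 and 0.00 over all genes. Igkv4-71 alone had no count in Has2+/- saline, and setting it to its bound of at least 3.73 (against 3 counts over the group) gave a median of 5.13. The groups did not overlap for 68 of the 80 in Has2+/- mice (18.3% of all genes) and for 64 in WT mice (27.4%). Both comparisons called 64 segments, each called 7 that the other did not, and 2 were called in neither. Those with at most 10% of their windows shared numbered 18, of which 15 rose in each genotype.

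Among called members whose groups did not overlap, the 10 largest rises in each genotype came from several families, among them Igkv3, Igkv4 and Igkv12. Igkv3-10 had 159, 90.5, 108, 124 and 33.2 CPM in Has2+/- OVA, against 0.580, 0, 0.167 and 0.651 CPM in Has2+/- saline. Its log2 fold change was 8.11 ± 0.71 (approximate SE, adjusted p = 8.25e-08), and in WT mice it was 5.16 ± 0.57. Igkv3-12 had 132, 207, 172, 198 and 71.9 CPM in Has2+/- OVA and 0.145, 0.561, 1.17 and 1.30 CPM in Has2+/- saline (7.67 ± 0.59, adjusted p = 1.15e-08). In WT-OVA it had 94.8, 106, 295, 118 and 115 CPM, against 0.732, 2.11, 0.197, 0 and 1.73 CPM in WT-saline (7.13 ± 0.51, adjusted p = 2.77e-09). All OVA libraries held far more Igkv3-12 than any saline library.

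Igkv12-41 had 46.7, 70.9, 88.6, 39.0 and 37.0 CPM in Has2+/- OVA, against 1.45, 0.187, 0.334 and 0 CPM in Has2+/- saline (6.59 ± 0.50). In WT-OVA it had 56.0, 93.7, 43.2, 96.2 and 86.4 CPM, against 0.732, 0.528, 0.197, 0.207 and 0 CPM in WT-saline (7.74 ± 0.49, adjusted p = 5.25e-10). The highest log2 fold change in WT mice was that of Igkv3-1, the V segment nearest to the J segments, at 8.21 ± 0.96. It had 31.8, 59.8, 26.2, 4.87 and 73.3 CPM in WT-OVA and 0.183, 0, 0, 0.415 and 0 CPM in WT-saline, where these values came from 3 counts in all, and without WT-saline library 4 the log2 fold change was 9.21. The other largest rises, were those of Igkv3-2, Igkv3-3, Igkv4-61, Igkv4-63, Igkv5-45, Igkv12-98 and Igkv13-85 in WT mice, with log2 fold changes between 6.98 and 7.71, and of Igkv3-7, Igkv4-50, Igkv4-57, Igkv4-63, Igkv4-90, Igkv12-98 and Igkv13-85 in Has2+/- mice, between 6.47 and 7.62. Leaving out a single library moved some of these by over 1.5 times while they stayed called. In WT mice Igkv3-3 was at 5.74 without library 10 and 8.30 without library 3, Igkv5-45 at 5.76 without library 11 and Igkv13-85 at 6.31 without library 14. In Has2+/- mice Igkv4-50 was at 9.63 without library 8, Igkv4-57 at 7.36 without library 7, Igkv13-85 at 7.35 without library 9 and Igkv12-41 at 8.08 without library 6.

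The lambda segments rose less. Iglv1 had a log2 fold change of 2.84 ± 0.54 in Has2+/- mice (10.9 ± 6.41 against 1.46 ± 1.21 CPM) and 3.91 ± 0.53 in WT mice (16.2 ± 8.59 against 1.03 ± 0.51 CPM), and rose in both. Without Has2+/- saline library 8 its Has2+/- value was 3.52. Iglv3 rose by 2.57 ± 0.36 in Has2+/- mice and 2.88 ± 0.38 in WT mice. Iglv2 had 10.7, 5.54, 5.59, 6.73 and 2.68 CPM in Has2+/- OVA, against 1.89, 2.43, 2.67 and 1.08 CPM in Has2+/- saline, which missed the threshold (1.62 ± 0.54, adjusted p = 0.0283). In WT-OVA it had 4.88, 21.4, 3.27, 4.35 and 4.91 CPM, against 2.20, 2.11, 1.97, 0.415 and 2.20 CPM in WT-saline (2.09 ± 0.51, adjusted p = 0.00312). Without WT-OVA library 11, which held the 21.4 CPM, the WT value was 1.26 and no longer called (adjusted p = 0.0168), while the Has2+/- comparison, in the same fit, was called (1.62, adjusted p = 0.00206).

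Different segments led OVA and saline libraries. Igkv1-110 or Igkv1-117 had most counts in 8 of the 9 saline libraries, and Igkv14-126 in the other. In OVA libraries the leader was Igkv3-7 in 4, Igkv12-44 in 2, Igkv3-12 in 2, and Igkv3-10 and Igkv5-39 in 1 each. Each of the 2 Igkv1 segments was among the 10 most used in 9 of 9 saline libraries and in 1 of 10 OVA libraries, Igkv1-110 in library 12 and Igkv1-117 in library 11. Igkv3-12 was among the 10 most used in all 10 OVA libraries and 0 saline libraries, and Igkv3-7 in 9 OVA libraries and 1 saline library. Other segments recurred in both treatments. Igkv10-96 was among the 10 most used in 8 OVA and 7 saline libraries, Igkv12-44 in 8 and 4, and Igkv6-15 in 4 and 6. Counts were not divided by length in these shares, and with that division 17 of 19 libraries kept their leader (transcripts of 338 to 501 bases).

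The Igkv1 pair gave way in share, not in level. Igkv1-110 made up 0.924 to 2.13% of light-chain V counts in Has2+/- OVA, against 4.80 to 16.2% in Has2+/- saline, and 0.806 to 2.79% in WT-OVA, against 4.58 to 8.26% in WT-saline. Its level rose all the same, by 2.09 ± 0.45 on the log2 scale in Has2+/- mice (adjusted p = 0.00151) and 3.13 ± 0.45 in WT mice (adjusted p = 2.26e-05). In Has2+/- mice the groups overlapped, since saline library 9 had 27.6 CPM and the lowest OVA library 27.4 CPM. Without library 9 the Has2+/- value was 2.81 (adjusted p = 8.79e-05). Igkv1-117 rose by 2.94 ± 0.51 in Has2+/- mice and 2.97 ± 0.47 in WT mice. The whole Igkv1 family of 8 members held 3.82 to 6.65% of counts in Has2+/- OVA, against 15.7 to 26.0% in Has2+/- saline, and 3.24 to 7.13% in WT-OVA, against 15.6 to 19.9% in WT-saline. The Igkv3 family of 10 members held 13.6 to 18.8% in Has2+/- OVA, against 5.54 to 7.16% in Has2+/- saline. In WT mice it held 14.5 to 22.8% in WT-OVA and 6.13 to 14.7% in WT-saline, which overlapped.

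**Figure D2:**
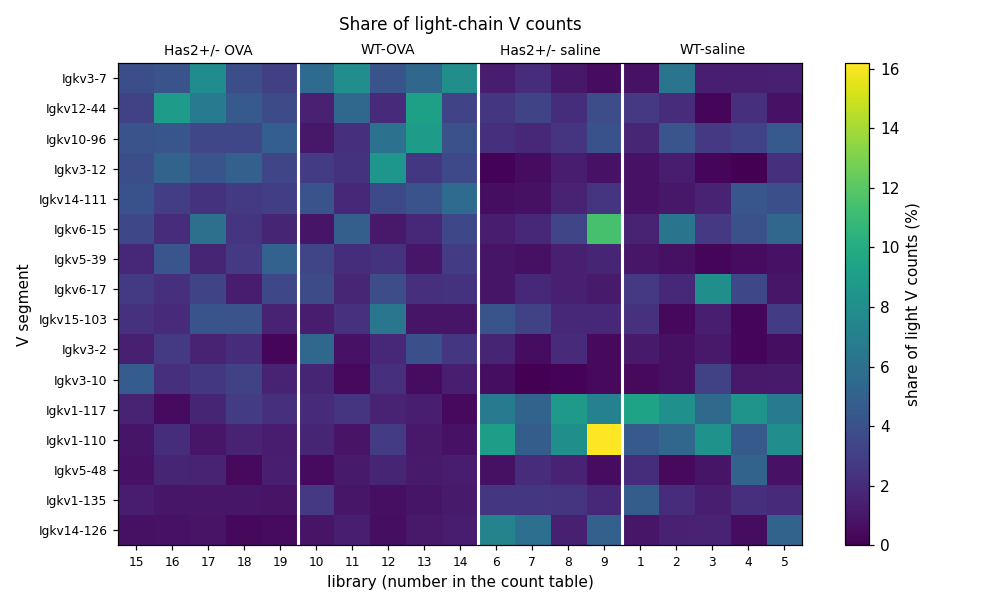
Share of light-chain V counts (colour, %) of the 16 segments that ranked first or second in any library, by library, with libraries grouped and numbered as in the count table. Igkv3-7 and Igkv3-12 are brighter in OVA libraries and Igkv1-110 and Igkv1-117 in saline libraries. An exception is Igkv3-7 in WT-saline library 2, at 6.21%. Has2+/- saline library 9 holds the brightest cell, Igkv1-110 at 16.2%.

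The position of kappa V segments on the chromosome was set beside these shares. Segments lay 18.4 kb (Igkv3-1) to 3166 kb (Igkv2-137) from the first J segment. Those at 2000 kb or more (27 of 100) held 24.2 ± 2.08% of kappa counts in Has2+/- OVA, against 45.2 ± 3.25% in Has2+/- saline, and 24.4 ± 2.82% in WT-OVA, against 34.0 ± 4.57% in WT-saline (SD), with no overlap between treatments in either genotype. Both Igkv1-110 and Igkv1-117 lie in that stretch, as does Igkv10-96. Segments nearer than 1000 kb (38 of 100) held 53.5 ± 2.92% in Has2+/- OVA, against 36.4 ± 4.67% in Has2+/- saline, and 55.0 ± 3.49% in WT-OVA, against 44.0 ± 2.97% in WT-saline. In WT mice these ranges touched, with 49.15% the lowest in WT-OVA and 49.18% the highest in WT-saline. The far stretch held more in Has2+/- saline (42.0 to 49.0%) than in WT-saline (28.5 to 40.3%), and these did not overlap. This rested on 357 to 908 kappa counts per saline library and was not tested. The OVA genotypes overlapped in that stretch (22.2 to 27.5% and 21.4 to 27.9%), as did the saline genotypes in the other stretches and by strand. Segments on the strand opposite to the J segments, which join by inversion, numbered 63 and held 61.4 ± 3.42% in Has2+/- OVA, 58.1 ± 5.07% in WT-OVA, 50.7 ± 2.41% in Has2+/- saline and 54.1 ± 5.48% in WT-saline.

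**Figure D3:**
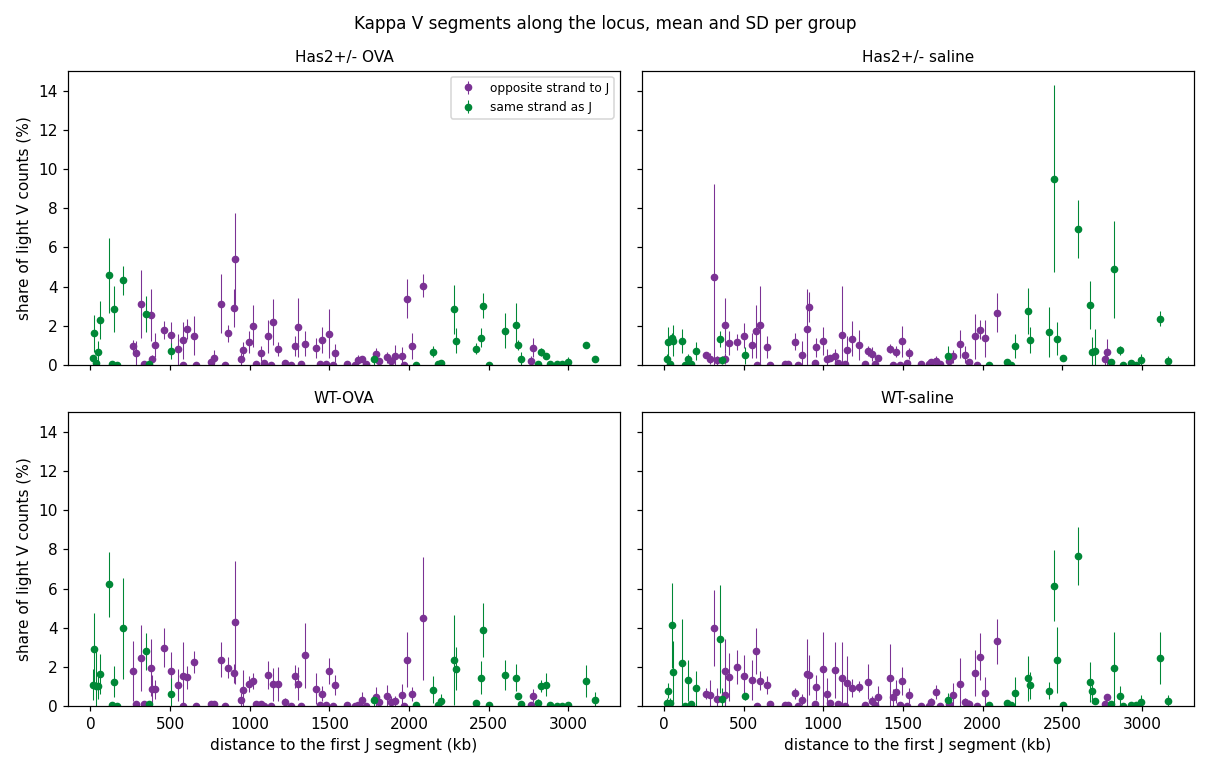
Mean share of light-chain V counts (%) of each kappa segment against its distance from the first J segment (kb), with SD as vertical lines, for the 4 groups, coloured by strand relative to the J segments. The tallest point lies beyond 2000 kb in Has2+/- saline (Igkv1-110) and WT-saline (Igkv1-117). It lies within 1000 kb in Has2+/- OVA (Igkv12-44) and WT-OVA (Igkv3-7). In WT-OVA the point of Igkv10-96, beyond 2000 kb, stands above that of Igkv12-44.

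No library was dominated by 1 segment. The leading segment held 4.70 to 8.95% of light-chain V counts in Has2+/- OVA, 5.64 to 9.22% in WT-OVA, 5.90 to 16.2% in Has2+/- saline and 7.95 to 9.39% in WT-saline. The effective number of segments (inverse Simpson index, the number of equally used segments with the same evenness) was 37.6 ± 4.08 in Has2+/- OVA, 33.8 ± 3.98 in WT-OVA, 30.0 ± 9.33 in Has2+/- saline and 31.2 ± 2.04 in WT-saline, and the groups overlapped. Has2+/- saline library 9 had the lowest value, 17.02, with Igkv1-110 at 16.2% (127 of 785 counts, 95% Wilson interval 13.8 to 18.9%) and Igkv6-15 at 11.5%. Without it the mean of that group was 34.4.

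More segments were detected in OVA libraries, 92 to 100 in Has2+/- OVA and 93 to 98 in WT-OVA, against 75 to 78 in Has2+/- saline and 65 to 76 in WT-saline. OVA libraries also held more light-chain V counts, 11034 to 25848 against 371 to 934 in saline libraries. Their total counts overlapped, at 4663153 to 6246712 in OVA and 4446534 to 7048676 in saline libraries. The excess of detected segments was not seen at an equal number of light-chain V counts. Thinned to 371 such counts each, Has2+/- OVA libraries held 59.2 to 66.8 segments and WT-OVA libraries 58.5 to 64.0. Saline libraries held 63.4 to 71.6 in Has2+/- saline and 60.7 to 72.0 in WT-saline. At this equal number of light-chain V counts the saline group means lay above the OVA group means, and the ranges of OVA and saline libraries overlapped. The thinned effective number was 34.3 ± 3.50 in Has2+/- OVA, 31.4 ± 3.67 in WT-OVA, 29.3 ± 8.79 in Has2+/- saline and 30.4 ± 2.28 in WT-saline.

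Segment use was partly shared between mice. The overlap that 2 draws from a single library would give was not measured. The overlap of 2 libraries (the sum over segments of the smaller share, at equal numbers of light-chain V counts) was 58.8 to 69.2% within Has2+/- OVA, 54.8 to 62.1% within WT-OVA and 57.1 to 65.4% between them. It was 56.0 to 66.7% within Has2+/- saline, 56.6 to 62.7% within WT-saline and 51.7 to 69.1% between them. Pairs of an OVA and a saline library overlapped by 41.5 to 56.1%, with a median of 49.5%. The lowest pairs within WT-OVA, within Has2+/- saline and between the saline groups lay inside that range.

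Individual segments nevertheless varied widely between mice of 1 group. The coefficient of biological variation that edgeR estimated had a median of 0.573 over the 80 members, against 0.115 over all genes tested. Within a group, the coefficient of variation of CPM had a median of 58.7% in Has2+/- OVA and 69.8% in WT-OVA. The 76 members with counts in all 10 OVA libraries after the filter were also compared across both genotypes. Their highest library was a median of 13.3-fold above their lowest. Igkv3-3 had 142, 1.10, 32.5, 0.696 and 2.36 CPM in WT-OVA, so that a single library, number 10, held most of it. Igkv4-90 had 0.320, 24.4, 56.8, 0.626 and 4.41 CPM in Has2+/- OVA, against 0.290, 0.187, 0 and 0 CPM in Has2+/- saline, and its call there (adjusted p = 0.00569) was lost without any of libraries 2, 6, 7, 8, 9, 16 or 17, with adjusted p between 0.0113 and 0.0196.

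Has2+/- OVA was then compared with WT-OVA. None of the 80 members was called by edgeR or by DESeq2, where edgeR called 0.00% of all genes and DESeq2 0.0553%. At an unadjusted p under 0.05 there were 23 members, 11 higher and 12 lower in Has2+/- OVA, where 7.74% of all genes were under that value and the median absolute log2 fold change was 0.51 over the members and 0.10 over all genes. The median log2 fold change was -0.11 (-3.30 to 2.78), and 1 member's groups did not overlap, where 1.90% of all genes did not.

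That member was Igkv2-109, with 28.5, 44.5, 37.0, 13.6 and 19.7 CPM in Has2+/- OVA, against 4.46, 10.1, 4.91, 2.09 and 7.09 CPM in WT-OVA. The lowest Has2+/- OVA library lay above the highest WT-OVA library. The log2 fold change was 2.31 ± 0.40, which missed the threshold (adjusted p = 0.0696). In saline the same segment had 0.435, 2.62, 0.667 and 4.99 CPM in Has2+/- mice, against 0.915, 0.880, 0.197, 0.622 and 1.10 CPM in WT mice (1.36 ± 0.76, adjusted p = 0.772). Of its 36-base windows 37.8% were shared, most of them with Igkv2-116.

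Igkv6-23 had 80.7, 56.7, 53.8, 64.2 and 43.9 CPM in Has2+/- OVA, against 63.9, 129, 147, 97.1 and 118 CPM in WT-OVA. Its log2 fold change was -0.89 ± 0.18 (adjusted p = 0.146). The overlap came from WT-OVA library 10, and without that library the segment was called lower in Has2+/- OVA (-1.03, adjusted p = 0.00805). The values for Igkv4-53 were 20.3, 11.3, 40.4, 6.26 and 20.5 CPM in Has2+/- OVA, against 1.06, 7.55, 3.27, 7.48 and 1.64 CPM in WT-OVA (2.20 ± 0.52, adjusted p = 0.305). Igkv17-127 had 6.40, 17.4, 23.9, 24.7 and 9.78 CPM in Has2+/- OVA, against 17.8, 28.9, 29.3, 76.4 and 55.8 CPM in WT-OVA (-1.34 ± 0.34, adjusted p = 0.310). The next 4 by p were Igkv4-79 (2.21 ± 0.61), Igkv3-10 (1.23 ± 0.35), Igkv6-14 (2.51 ± 0.74) and Igkv3-3 (-3.30 ± 0.98), with adjusted p between 0.321 and 0.382. The value for Igkv3-3 was -1.34 without WT-OVA library 10.

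**Figure D4:**
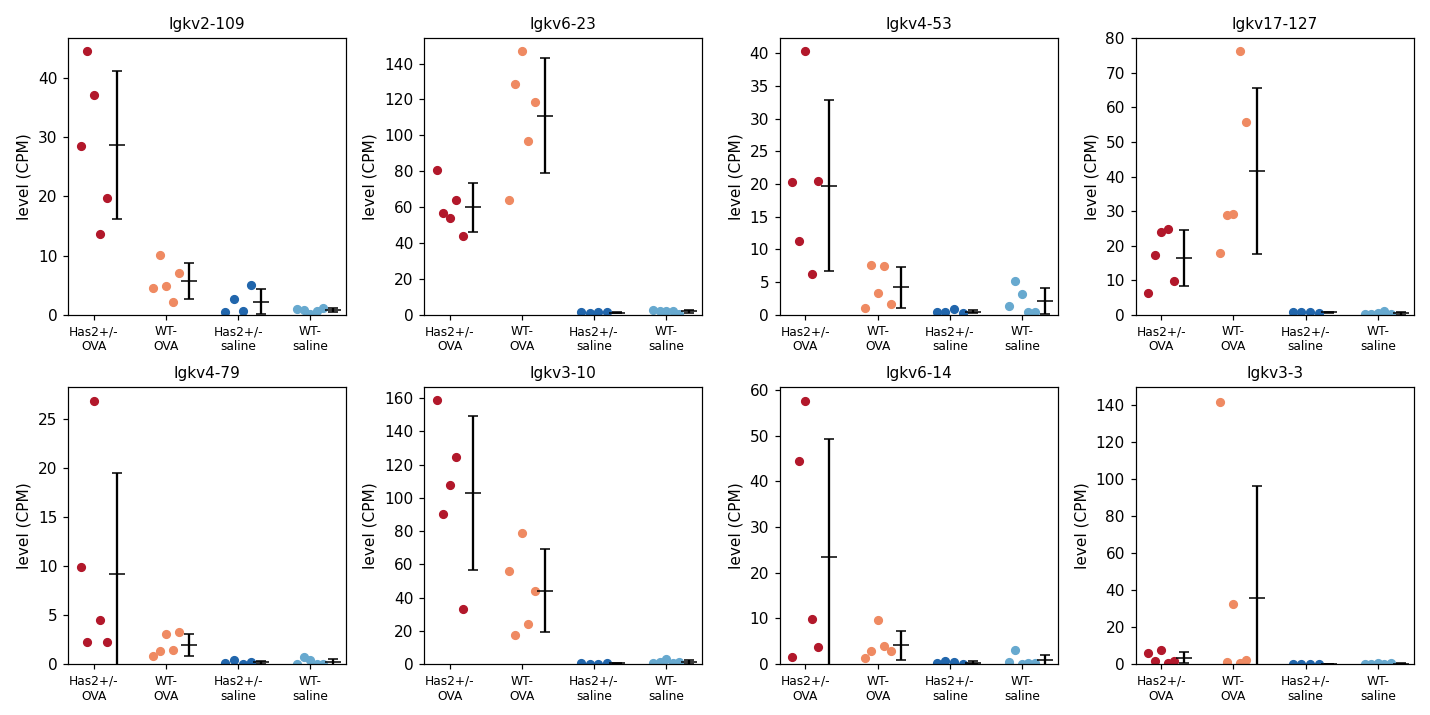
Levels (CPM, linear axes from 0) of the 8 segments of smallest p between Has2+/- OVA and WT-OVA, one point per library, with mean and SD as black bars. The 5 Has2+/- OVA points of Igkv2-109 lie at 13.6 to 44.5 CPM and the WT-OVA points at 2.09 to 10.1 CPM, and in the other 7 panels these groups overlap.

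Has2+/- saline and WT-saline did not differ in any of the 80 members at the threshold in edgeR or DESeq2 (0.00% of all genes called in edgeR and 0.00691% in DESeq2), and for none of them did the groups not overlap (1.70% of all genes). A single member, Igkv14-126, had an unadjusted p under 0.05, where 6.95% of all genes did. It had 6.96, 5.98, 1.33 and 8.46 CPM in Has2+/- saline, against 0.915, 2.46, 1.38, 0.415 and 4.09 CPM in WT-saline (1.51 ± 0.60, adjusted p = 0.661). The others of smallest p were Igkv4-53 (-2.07 ± 1.00), Iglv3 (0.93 ± 0.47), Igkv2-109 and Igkv6-17 (-1.10 ± 0.62). Saline libraries held 371 to 934 light-chain V counts each.

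The interaction asks whether the response to OVA differed between Has2+/- and WT mice. No member was called by edgeR or DESeq2 (0.00% of all genes in edgeR), and 3 had an unadjusted p under 0.05, where 4.10% of all genes did. They were Igkv4-53 (4.27 ± 1.10), Igkv14-126 (-2.32 ± 0.69) and Igkv3-10 (2.96 ± 1.39), each with an adjusted p of 1.00, followed by Igkv6-14 (3.83 ± 1.99) and Igkv17-127 (-2.27 ± 1.18).

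The 23 members that did not pass the filter had 10 to 207 summed counts, the most in Igkv11-125, and included all 6 pseudogenes. Together they had 1115 counts in OVA and 76 in saline libraries, and each had more in OVA.

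Of the constant genes that complete these chains, Igkc and Iglc2 rose with OVA. Igkc, the kappa constant gene, had 38 to 101 counts in Has2+/- OVA, 70 to 124 in WT-OVA, 2 to 4 in Has2+/- saline and 0 to 5 in WT-saline, far below the kappa V counts of 10967 to 25682 in OVA libraries. The J segments of kappa had 0 counts in all libraries. Gm43291, whose position in the count table spans Igkj and Igkc, had 33 to 74 counts in OVA and 7 to 19 in saline libraries. Its part in the low Igkc count was not tested. Igkc rose by 4.47 ± 0.36 in Has2+/- mice and 5.51 ± 0.35 in WT mice. Iglc2, a lambda constant gene, rose by 2.65 ± 0.25 in Has2+/- mice and 2.55 ± 0.23 in WT mice. It had 252 to 469 counts in Has2+/- OVA, 217 to 512 in WT-OVA, 51 to 83 in Has2+/- saline and 36 to 75 in WT-saline. In every library Iglc2 lay above both the summed lambda V counts and Igkc. The constant gene counts thus did not show the kappa excess of the V counts, and the reason was not tested. Iglc1 and Iglc3 had at most 5 counts in a library. There were 2.17 to 2.53 light-chain V counts per heavy-chain V count in Has2+/- OVA, 2.10 to 2.48 in WT-OVA, 2.16 to 2.64 in Has2+/- saline and 2.03 to 2.56 in WT-saline, so the ratio overlapped in all groups.

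Markers of the cells that carry these chains were higher too. For this and the following lists, 18.2% of all genes tested were called in Has2+/- mice and 21.9% in WT mice, in either direction. The median log2 fold change over all genes was -0.014 in Has2+/- mice and -0.001 in WT mice. All 10 plasma cell genes rose in both genotypes, with a median log2 fold change of 2.65 in Has2+/- mice and 2.74 in WT mice. Jchain, which joins antibody units into polymers, rose by 4.67 ± 0.28 in Has2+/- mice and 5.04 ± 0.26 in WT mice, and Derl3, of the secretory pathway, by 3.67 ± 0.20 and, in WT mice, 3.93 ± 0.18. Of the 10 B cell genes, 9 rose in Has2+/- mice and 10 in WT mice, with a median of 1.40 in each. Ms4a1 rose by 1.48 ± 0.23 in Has2+/- mice and 1.11 ± 0.22 in WT mice. Of the heavy-chain constant genes, 5 of 8 tested rose in each genotype. Of 10 germinal centre and mutation genes tested, 5 rose in Has2+/- mice (Cxcr5, Gcsam, Mybl1, Rgs13 and Ung) and 3 in WT mice (Cxcr5, Mybl1 and Rgs13). The 3 of 10 in WT mice is not far above the 21.9% of all genes. Mybl1 rose by 2.48 ± 0.27 in Has2+/- mice and 1.92 ± 0.26 in WT mice. Of 6 lung epithelium genes, Ager fell in both genotypes, by 0.39 in Has2+/- mice and by 0.45 in WT mice on the log2 scale, and none rose. How far the other cells' genes bear on the segment levels was not tested.

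Genes of V segment recombination in developing B cells were too low to test: Rag1, Rag2, Vpreb1, Vpreb2 and Igll1 had at most 4 counts in a library, and Dntt did not pass the filter either. The 8 tested genes of that list were Vpreb3 and 7 of DNA end joining, which other cells also use (Prkdc, Xrcc4, Lig4, Dclre1c, Nhej1, Xrcc5 and Xrcc6), and 0 of them were called in each genotype (median 0.18 in Has2+/- mice and 0.13 in WT mice). Not called either were T cell genes (0 of 6) or lymph node stroma genes (0 of 3 tested). The median log2 fold change of the T cell genes was 0.72 in Has2+/- mice and 0.36 in WT mice. That of the stroma genes was 0.15 in Has2+/- mice and 0.01 in WT mice. Over all genes, 18.2% were called in Has2+/- mice and 21.9% in WT mice, a share at which lists this short can hold 0 calls. The summed level of lymph node stroma genes was 32.5 to 61.5 CPM in Has2+/- OVA, 30.9 to 73.6 in WT-OVA, 28.9 to 47.9 in Has2+/- saline and 28.9 to 69.7 in WT-saline. Thymus genes, Dntt among them, summed to 3.77 to 6.96 CPM in 18 libraries and to 35.1 CPM in Has2+/- OVA library 18, which also had the highest T cell sum, 161 CPM. Leaving that library out changed no call of a named segment.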

How the data were processed

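Total RNA of whole lungs was sequenced as paired reads of 36 bases, which the authors mapped to mm10 and counted per gene with CLC Genomics Workbench. The deposited values used are these raw counts per gene. The annotation used, and the handling of reads with several matches, are not given in the sources used here. The labels name an rRNA depletion kit, while the deposited description names an mRNA kit, and which was used was not resolved. A further 38 columns of scaled or transformed values, and the authors' own tests (EDGE, ANOVA), were not used. Column names give a library's group but no replicate number, so libraries carry the number in the column name.

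Counts were tested with edgeR 4.0.16 in R 4.3.3: a TMM scaling, the filterByExpr defaults (minimum count 10, minimum total 15, proportion 0.7) and quasi-likelihood F-tests on group means, with 15 residual degrees of freedom. P-values were two-sided and adjusted by Benjamini-Hochberg over 14495 genes, and a call required both a fold change over 1.2 and an adjusted value below 0.01. The SE after a log2 fold change was back-calculated, as its absolute value divided by the square root of the F statistic. It is therefore approximate. CPM are counts scaled by library size and TMM factor. The script was tested on simulated data. Library measures have no test. Named segments were the leader of each library, any at 10% or more and all lambda segments. Added were the 10 largest rises per OVA comparison, among called members whose groups did not overlap (falls: none called). Those of smallest p in the other comparisons (8, 5 and 5) were also named. Members, lists and rules were chosen with earlier results of these data known. Positions and sequences are from GENCODE M21.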

Additional observations from a re-analysis of the deposited data

Results flagged for a closer look

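In 19 of 148 checks a single library stood far from the rest of its group. The nominal rate of the rule is 1 in 20 (7.4 here), but the checks share libraries and some rest on few counts. The 19 can therefore not be read as an excess over chance. None of these was used to leave a library out of the results.

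Has2+/- saline library 9 had the highest summed kappa level of its group (167 CPM, the others at most 95.7), and the highest Igkv1-110 (27.6 CPM, others at most 8.71) and Igkv6-15 (19.5 CPM, others at most 3.17). In the same group library 6 alone had Igkv3-3, at 0.145 CPM from 1 count.

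WT-saline library 2 had the highest summed kappa level of its group (160 CPM, others at most 91.7). It also stood apart in Igkv3-7 (10.2 CPM, others at most 1.18), Igkv4-57 (5.45 CPM), Igkv4-90 (0.704 CPM from 4 counts, others 0) and Igkv6-14 (2.99 CPM). Elsewhere in WT-saline, library 1 had the highest leading share (9.39%), library 4 the highest Igkv17-127 (1.04 CPM) and the lowest Iglv2 (0.415 CPM), and library 5 the lowest Igkv6-23 (0.629 CPM).

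WT-OVA library 11 had the highest summed lambda level (59.5 CPM, others at most 28.9) and lambda share (1.34%, others at most 0.803%), with Iglv2 at 21.4 CPM (others at most 4.91). In WT-OVA, library 12 had the highest Igkv3-12 (295 CPM, others at most 118) and library 10 the highest Igkv3-3 (142 CPM, others at most 32.5). Has2+/- OVA library 16 had the highest Iglv3 (24.9 CPM, others at most 10.02).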

How the results depend on the processing

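The number of segments called in the OVA comparisons stayed within 1.5 times of its value under every alternative run. It was 63 to 77 in Has2+/- mice and 57 to 80 in WT mice over other thresholds, scalings, filters, a fit of the 2 groups alone, DESeq2 and a robust spread estimate (chosen after seeing the data), and 60 to 72 in Has2+/- mice and 68 to 73 in WT mice with 1 library left out. No segment was called in the genotype comparisons or the interaction, except 1 (Igkv6-23) between Has2+/- OVA and WT-OVA without WT-OVA library 10 (0 to 1 over the libraries left out). Of the named segments, Iglv2 in Has2+/- mice was called with DESeq2 (adjusted p = 0.00865) and in the fit of the 2 groups alone (0.00959), and Igkv4-90 was lost with the robust estimate (0.0178). No called segment changed direction. In 3 of the 4 genotype comparisons of summed levels the sign depended on single libraries. With 1 library left out, the log2 fold of summed kappa was -0.17 to 0.03 in Has2+/- OVA against WT-OVA and -0.10 to 0.43 in Has2+/- saline against WT-saline, and that of summed lambda was -0.26 to 0.24 in Has2+/- OVA against WT-OVA. That of summed lambda in Has2+/- saline against WT-saline stayed positive, at 0.24 to 0.68, while the groups overlapped. No paired analysis was possible because the columns carry no replicate number of the labels.

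Other definitions moved the evenness measures, by construction. Values are given for Has2+/- OVA, WT-OVA, Has2+/- saline and WT-saline in turn. By family the leading share was 18.6, 20.2, 20.8 and 19.8% and the effective number 9.40, 8.58, 9.59 and 8.60. The 3 most used segments held 15.99, 19.3, 23.7 and 20.2%. The exponential of the Shannon entropy was 49.4, 46.2, 44.4 and 44.1. Segments detected numbered 63.2, 60.9, 68.7 and 66.98 after thinning. Among segments with at least 100 summed counts they numbered 82.2, 82.4 and 73.0 in Has2+/- OVA, WT-OVA and Has2+/- saline. Dividing by transcript length (chosen after seeing the data) gave a leading share of 7.83% in WT-saline.

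With 371 to 934 light-chain V counts in a saline library, fold changes of rare segments rest on few saline counts.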
